A study of Mus musculus with 2 samples.

Results

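The cells described here are Fos-high satellite glia of the mouse dorsal root ganglion, 1229 of the 20585 cell barcodes in the 2 deposited libraries (143 in replicate 1 and 1086 in replicate 2). Satellite glia are the flat glial cells that wrap the body of each sensory neuron, buffer potassium and glutamate around it and supply it with lipid, and Fabp7, a fatty acid binding protein, is among their usual markers. Fos is an immediate early gene: its mRNA appears within minutes of calcium entry, MAP kinase signalling or cell stress, without new protein synthesis, and its product pairs with Jun proteins to form the transcription factor AP-1. Immediate early genes of this kind are known to be induced in satellite glia after nerve injury and also by warm enzymatic dissociation of tissue.

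A barcode was counted as a member where it had at least 500 genes and 2000 UMIs (unique molecular identifiers, each standing for 1 captured mRNA), under 20% of UMIs from mitochondrial genes, and, per 10000 UMIs, under 25 of the neuronal genes Uchl1, Tubb3, Snap25 and Stmn2 together, at least 40 of Fabp7 and at least 20 of Fos. The cells described beside them passed the same gates with Fos under 20 and are called Fos-low: 3161 cells, 2020 in replicate 1 and 1141 in replicate 2. Fos and Fabp7 therefore chose the cells, and Egr3, Myc and Cxcl10 came with the description of the class, so these 5 genes are given as descriptions with no test.

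Both libraries were made from lumbar (L4-5) ganglia of wildtype mice aged 8 weeks, all of the group treated with acetone, ether and water (AEW), a dry-skin model of chronic itch. No untreated group is analysed here, so nothing below compares treated with untreated animals. The tissue was digested at 37 °C for 20 minutes with Liberase TM and then for 10 minutes with Liberase TL and papain, before 10x Genomics 3′ v3.1 libraries were made. Whether each replicate came from its own animals is not stated in the labels. The p-values below then rest only on how the Fos-high against Fos-low difference varied between these libraries, which may be technical. That spread was pooled over satellite glia, Schwann cells and endothelial cells, with 3 residual degrees of freedom, so satellite glia gave only part of it.

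The libraries held 113251556 UMIs in 8818 barcodes and 102347251 UMIs in 11767 barcodes. Both libraries are labelled as neurons, whereas the cells described were selected for few neuronal UMIs. The label of satellite glia was checked on 7 satellite genes that the gates did not use (Kcnj10, Cdh19, Sostdc1, Pla2g7, Ednrb, Glul and Apoe). They summed to 87061 and 97115 library-scaled UMI counts (CPM) in Fos-high cells, against at most 2989 in gated Schwann cells and 2981 in gated endothelial cells. Apoe made up most of the Fos-high sums, at a mean of 89609 CPM over the 2 libraries, against 1203 for Ednrb and 854 for Sostdc1. The check therefore rests mainly on Apoe. No member shared its barcode with a barcode of the other library, although 24 barcodes were shared in all. Doublets were kept, since the automatic Scrublet threshold marked 1 and 0 barcodes.

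The share of Fos-high cells lay further apart between the libraries in satellite glia than in the other gated classes. In replicate 1, 143 of 2163 gated satellite glia were Fos-high, or 6.61% (exact Clopper-Pearson 95% interval 5.60 to 7.74). In replicate 2, 1086 of 2227 were, or 48.8% (46.7 to 50.9). In gated Schwann cells the shares were 53.1% and 48.6%, and in endothelial cells 61.3% and 73.0%. Intervals on shares cover counting error only, and with 1 treated group no test of the gap between libraries was made. Fos was absent from the UMIs of 55.9% of gated satellite glia in replicate 1 and of 8.13% in replicate 2, and 41 and 494 cells lay at 40 to under 80 per 10000. Just outside the threshold, at 15 to under 20 per 10000, were 27 and 110 cells, and just inside it, at 20 to under 25, were 34 and 84.

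**Figure D1:**
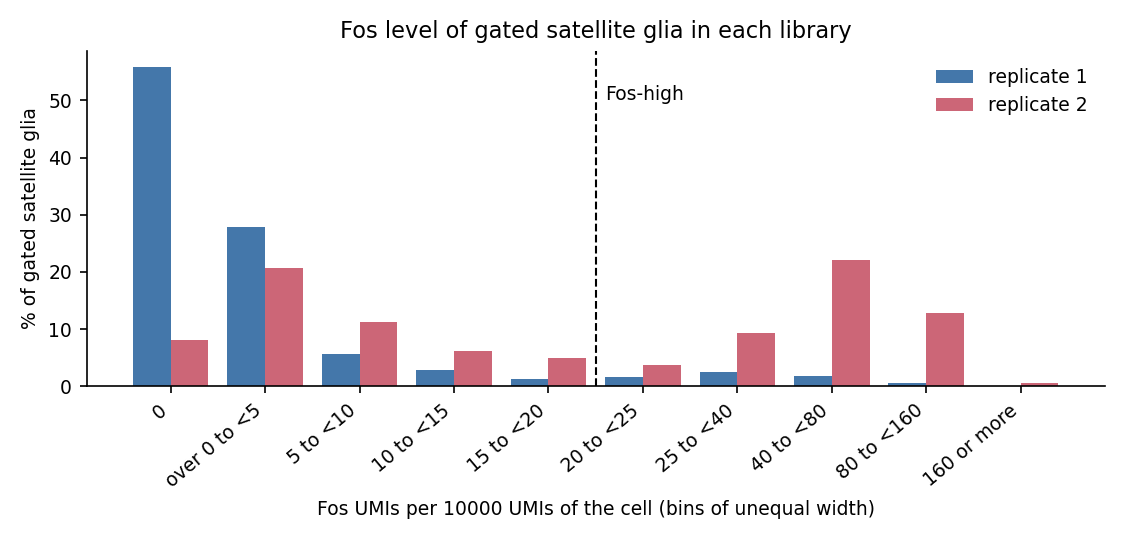
Share of gated satellite glia (y axis, percent) in bins of Fos UMIs per 10000 UMIs (x axis, bins of unequal width) in replicate 1 (blue) and replicate 2 (red). The dashed line is the threshold of 20 per 10000, which 6.61% of cells passed in replicate 1 and 48.8% in replicate 2.

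The depth of the cells was close between the classes, with medians of 7794 (Fos-high) and 8505 (Fos-low) UMIs in replicate 1 and 7581.5 and 7296 in replicate 2. Median Fabp7 was lower in Fos-high cells of replicate 1, at 92.8 against 161 per 10000, and nearer in replicate 2, at 144 against 164. Members with Fabp7 only just inside its gate, at 40 to under 60 per 10000, made up 25.9% of Fos-high and 7.33% of Fos-low cells in replicate 1, and 9.58% and 6.22% in replicate 2. The median mitochondrial share was 6.24% against 7.73% and 8.14% against 8.62%. Among the 555 and 1020 barcodes with the highest doublet scores were 18.2% of Fos-high and 6.29% of Fos-low cells in replicate 1, and 12.1% and 8.41% in replicate 2.

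Markers of other cell types moved with Fos in part. Of 10 endothelial markers, 8 rose in the test described below (Cldn5, Pecam1, Flt1, Emcn, Kdr, Cdh5, Esam and Ly6c1), and the 10 summed to 281 CPM in Fos-high and 39.5 in Fos-low cells of replicate 1 and to 236 and 93.2 in replicate 2, against 13125 CPM in Fos-high endothelial cells of replicate 1. In replicate 1, 122 of the 159 UMIs of Cldn5, Pecam1, Flt1 and Emcn in members came from 1 cell. Of 10 myelinating Schwann cell markers, 4 also rose (Drp2, Cldn19, Ncmap and Pllp) and 0 fell, with a median log2 fold change of 1.42. Ncmap stood at 169 CPM in Fos-high and 12.8 in Fos-low cells of replicate 1 and at 15.4 and 7.76 in replicate 2, and Pllp at 43.8 and 5.91 and at 5.43 and 3.00. Pmp22 and Mbp did not pass, at means over the libraries of 768 and 674 CPM in Fos-high and 447 and 436 in Fos-low cells. Among neutrophil genes, 3212 of 3223 UMIs of S100a8, S100a9 and Retnlg in the members of replicate 1 came from 1 cell. The 6 erythroid genes summed to 2035 and 450 CPM in replicate 1 and to 699 and 1842 in replicate 2, and none passed. Neuron, non-myelinating Schwann cell, mural cell, fibroblast, macrophage, B cell and cycling markers had no call in either direction. Of these lists, only the macrophage and fibroblast markers summed higher in Fos-high cells of both libraries. The macrophage markers summed to 211 and 107 CPM in Fos-high and Fos-low cells of replicate 1 and to 184 and 107 in replicate 2. Among them Lyz2 had means over the libraries of 116 and 30.3 CPM. No T or NK cell marker reached the fit. The part of these other cells in the results was not tested as such, but the counts of genes called, over all genes and in each list, and the fold changes of the named genes were also computed without satellite glia that held a UMI of Cldn5, Pecam1, Flt1, Emcn, S100a8, S100a9, Retnlg or Lcn2, or at least 20 UMIs of a Schwann cell marker per 10000; this is called the marker-free set. Macrophage and fibroblast markers were not used to choose it.

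The reference windows upstream of 4 genes are printed here because immediate early and inflammatory genes are known to be controlled through short sites near the start. Fos defines the members and Cxcl10 came with their description. Btg2 and Dusp1 are examples from the 12 genes named below as higher, at ranks 7 and 11 by fold change. The sequences come from RefSeq promoter windows on GRCm38.p6, in which 128 of the 177 genes called higher below were matched and Egr3 and Myc were not. They are written 5′ to 3′ on the gene's strand, upstream of the annotated start, with matches in capitals. The window of Fos (chr12:85473750-85473889, plus strand) is bases 140 to 1 before the start, that of Cxcl10 (chr5:92348949-92349109, minus strand) bases 220 to 60, that of Dusp1 (chr17:26508592-26508672, minus strand) bases 200 to 120 and that of Btg2 (chr1:134079275-134079355, minus strand) bases 200 to 120.
Fos: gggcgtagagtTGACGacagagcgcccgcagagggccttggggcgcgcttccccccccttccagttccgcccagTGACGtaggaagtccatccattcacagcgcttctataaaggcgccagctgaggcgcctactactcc
Cxcl10: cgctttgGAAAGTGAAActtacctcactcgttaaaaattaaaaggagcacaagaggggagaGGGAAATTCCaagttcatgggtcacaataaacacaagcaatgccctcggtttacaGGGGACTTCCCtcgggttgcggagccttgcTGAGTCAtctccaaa
Dusp1: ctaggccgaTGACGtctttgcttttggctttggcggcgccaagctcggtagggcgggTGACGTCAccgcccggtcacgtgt
Btg2: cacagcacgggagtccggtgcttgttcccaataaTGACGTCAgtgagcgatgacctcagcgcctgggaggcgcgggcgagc

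In these windows the capitals mark, for Fos, the letters TGACG at 129 and 66 bases before the start. For Cxcl10 they mark a match to the interferon-stimulated response element at 213, kappaB sites at 159 and 104 (the second joined with a match on the other strand) and an AP-1 site at 74. For Dusp1 they mark TGACG at 191 and a full cyclic AMP response element at 143, and for Btg2 a cyclic AMP response element at 166. No other of the 12 genes named below as higher had this full element in a matched window, so these windows are not typical of those genes. Over the 250 bases upstream and on both strands, the cyclic AMP response element TGACGTCA, which contains TGACG, was in 7.88% of the 165 windows of genes called higher, in 2.62% of the 11852 windows of tested genes and in 1.55% of all 32851 windows. TGACG was in 36.4%, 26.4% and 17.8%, the AP-1 site TGANTCA in 7.27%, 4.34% and 6.75%, and the interferon-stimulated response element in 7.88%, 2.59% and 2.98%. The kappaB site was in 15.2%, 9.04% and 7.25% and the CArG box, the site of serum response factor, in 3.64%, 1.13% and 1.47%. Several windows can belong to 1 gene, and these shares are descriptions of letters, with no test.

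Fos itself, at chr12:85473890-85477273 on GRCm38, stood at 4229 and 6900 CPM in the Fos-high cells of replicates 1 and 2 and at 195 and 640 in the Fos-low cells, as the gate requires. CPM here are UMIs of all cells of a class summed within a library and scaled by TMM, edgeR's library size factor. Fabp7 (chr10:57784881-57788450) stood at 11768 and 17445 CPM in Fos-high and at 19288 and 18817 in Fos-low cells, so its Fos-high sums were the lower in both libraries.

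Egr3 (chr14:70077203-70082614), a zinc finger transcription factor of the immediate early class, stood at 142 and 201 CPM in Fos-high and at 43.7 and 98.5 CPM in Fos-low satellite glia of replicates 1 and 2. Myc (chr15:61985391-61990374), a growth-regulating transcription factor, stood at 13.3 and 38.3 against 2.33 and 13.4 CPM. Its Fos-high value in replicate 1 lay just below its Fos-low value in replicate 2, and the classes separated only within each library. Cxcl10 (chr5:92346638-92348889), a chemokine that draws T cells through its receptor Cxcr3 and a target of interferon signalling, stood at 383 and 1243 against 90.8 and 257 CPM. Its Fos-high values both exceeded its Fos-low values. All 3 genes were higher in Fos-high cells of each library, and higher in replicate 2 than in replicate 1 in both classes.

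Few members had detected UMIs of all 3 mRNAs, a count limited by the low detection of Myc. After each cell was thinned to 2000 UMIs, 62.2% of members in replicate 1 and 40.4% in replicate 2 had no UMI of Egr3, Myc or Cxcl10, and 0 and 9 cells had all 3. For 0 of 143 cells, an approximate upper limit of 3 over the number of cells is 2.10%, which is not the exact interval used for other shares. At this depth Cxcl10 was detected in 19.6% of Fos-high and 4.75% of Fos-low cells in replicate 1, and in 41.8% and 11.9% in replicate 2; without thinning the shares were 27.3% and 10.3%, and 53.04% and 22.2%. Egr3 was detected in 21.7% and 6.63%, and in 28.1% and 15.2%, and without thinning in 53.1% and 22.4%, and 60.1% and 38.0%. Myc was near the level of 1 UMI, with 4 and 63 Fos-high cells (2.80% and 5.80%) and 3 and 27 Fos-low cells positive at 2000 UMIs. Without thinning it was detected in 10.5% of Fos-high and 1.83% of Fos-low cells in replicate 1, and in 17.8% and 7.10% in replicate 2. These shares do not show whether a cell without a UMI lacked the mRNA. As a level in other cells, thinned Cxcl10 was found in 0.791% and 8.77% of Fos-low Schwann cells (median 4523 and 4052 UMIs) and in 4.72% and 26.6% of Fos-low endothelial cells (median 9679 and 7782 UMIs). Cxcl10 in Fos-low satellite glia of replicate 2 thus lay between those of the other classes and is not told apart from free RNA by these shares. Thinned Egr3 was found in 33.3% and 56.5% of Fos-high and in 8.66% and 51.7% of Fos-low endothelial cells. Thinned Myc was found in 14.4% and 15.03% of Fos-high and in 7.09% and 21.7% of Fos-low endothelial cells. Of these endothelial shares, only that of Egr3 in Fos-low cells of replicate 1 lay below the share in members of the same library. In Fos-high Schwann cells Egr3 was found in 15.4% and 29.6% and Myc in 1.40% and 0.0%.

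The share of a gene's unthinned UMIs held by few members was also described, although it depends on how many members had any UMI of the gene. The tenth of members with the most UMIs held 87.3% of the Cxcl10 UMIs in replicate 1 and 52.8% in replicate 2, against 45.1% and 41.3% for Egr3, 35.6% and 25.2% for Jun and 29.2% and 23.5% for Fos. Hspa1a was at 37.7% and 62.7% and Atf3 at 72.3% and 46.3%, and the sparser Myc, Cxcl1 and Ccl2 were at 72.3%, 94.0% and 96.3% in replicate 2. In replicate 1 the tenth was 15 cells, and Myc, Cxcl1 and Ccl2 had UMIs in only 15, 9 and 7 cells. Their share there was thus 100.0% whatever their spread. A single member held up to 66 Cxcl10 UMIs in replicate 1 and 165 in replicate 2. In replicate 2, Egr3 was found at 2000 UMIs in 29.3% of the 454 Cxcl10-positive members (95% interval 25.1 to 33.7) and in 27.2% of the 632 others (23.8 to 30.9). Both mRNAs were thus found together in 133 members, and the shares of Egr3 with and without Cxcl10 had overlapping intervals, which cover counting error over cells only.

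Within satellite glia all 3 genes were higher at the highest than at the lowest Fos in each library, but the course of Cxcl10 differed between the libraries. These courses were not tested. In replicate 2, Egr3 stood at 67.8, 120, 148, 177 and 231 CPM in cells with Fos under 5, 5 to under 20, 20 to under 40, 40 to under 80 and at least 80 per 10000, without TMM scaling. Cxcl10 stood at 104, 404, 921, 1216 and 1214 CPM, so that it was about level over the upper 2 strata while Egr3 was not. Myc stood at 5.61, 20.9, 29.6, 36.2 and 38.3 CPM. In replicate 1, Cxcl10 stood at 79.1, 108, 272, 207 and 1735 CPM and Egr3 at 35.3, 73.3, 120, 128 and 308 CPM. The uppermost stratum of replicate 1 held 12 cells, and without it Cxcl10 there was highest at 20 to under 40. Jun, the main partner of Fos, stood at 231, 793, 1896, 2978 and 4580 CPM in replicate 2 and at 184, 898, 1832, 2489 and 5445 CPM in replicate 1, close in both libraries at equal Fos.

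**Figure D2:**
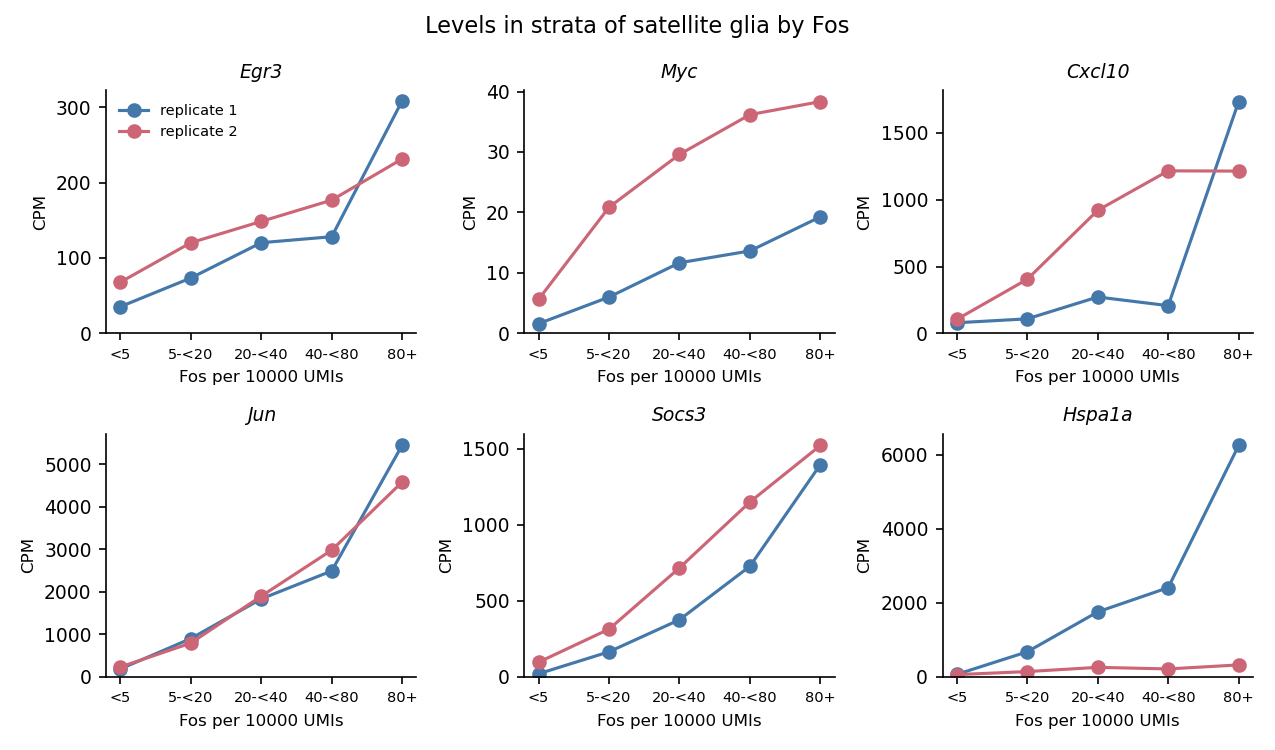
Summed CPM (y axes, linear from 0) of 6 genes in satellite glia grouped by Fos per 10000 UMIs (x axes) in replicate 1 (blue) and replicate 2 (red). Jun follows Fos alike in both libraries, Cxcl10 levels off in replicate 2 at 1216 and 1214 CPM, and Hspa1a reaches 6245 CPM in replicate 1 but 322 in replicate 2; the upper stratum of replicate 1 holds 12 cells.

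To ask which other genes differed along with Fos, UMIs were summed over the Fos-high and the Fos-low cells of each library and compared with edgeR's quasi-likelihood test, with each class in each library as a block. Sums of Schwann and endothelial cells split at the same Fos level were in the fit to share the estimate of the spread. Of 11523 genes tested, 177 were higher in Fos-high satellite glia at a Benjamini-Hochberg adjusted p under 0.05, which is 1.54%, and 1 was lower, which is 0.00868%. At an unadjusted p under 0.05 there were 957. The median log2 fold change over all genes was -0.02. Since the cells were split by a measured mRNA, a call says that a gene's summed UMIs differed between Fos-high and Fos-low cells, and not that a treatment changed it. It does not show whether many cells or a few carried the difference. In the marker-free set 92 genes were higher, 87 of them among the 177, and 156 of the 176 genes tested there kept their direction. Of the 177 genes, 175 kept their direction with the satellite sums of replicate 1 left out and 175 with those of replicate 2 left out. Such a fit holds 1 Fos-high and 1 Fos-low satellite sum. Its spread comes from Schwann and endothelial cells only, so calls in it, here and below, do not show replication within satellite glia.

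The 12 genes named as higher included the transcription factors Egr1, Egr2, Klf2, Atf3 and Jun and regulators of mRNA decay, kinases and protein folding. Zfp36 (chr7:28376784-28380253), whose product tristetraprolin binds and destabilises AU-rich cytokine mRNAs, stood at 547 and 1231 CPM in Fos-high cells and at 29.5 and 137 in Fos-low cells, a log2 fold change of 3.67 ± 0.32 (SE; edgeR adjusted p = 2.75e-05). Both Fos-high values exceeded both Fos-low values. Arc, an activity-regulated gene best known from neurons, stood at 95.5 and 32.3 against 5.01 and 4.75 CPM (log2 fold change 3.61 ± 0.28). Dnajb1, a cochaperone of Hsp70, stood at 688 and 302 against 34.3 and 53.04 CPM (3.42 ± 0.49). In Fos-high cells Arc and Dnajb1 were higher in replicate 1 than in replicate 2. Egr1 stood at 1428 and 1980 against 115 and 227 CPM (3.38 ± 0.36). Next came Klf2 (3.27), Atf3 (3.24), the antiproliferative gene Btg2 (3.21), Socs3 (3.18), the matricellular gene Ccn1 (3.17), Egr2 (3.10), Dusp1 (2.99) and Jun (2.86). The rule that chose these 12 genes took the largest fold changes among calls with the same direction and at least 20 CPM on the higher side in both libraries. It left out Lcn2, for example, which passed at a log2 fold change of 5.35 and is described below. All 12 stayed called in the marker-free set, with log2 fold changes of 3.06 to 4.504. Their log2 fold changes were 2.54 to 3.19 with replicate 1 left out and 2.98 to 4.29 with replicate 2 left out. The 1 gene called lower was Arvcf, which encodes a catenin that binds cadherins, at 31.1 and 41.8 against 52.9 and 67.2 CPM; this call was lost in the marker-free set and with either library left out.

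**Figure D3:**
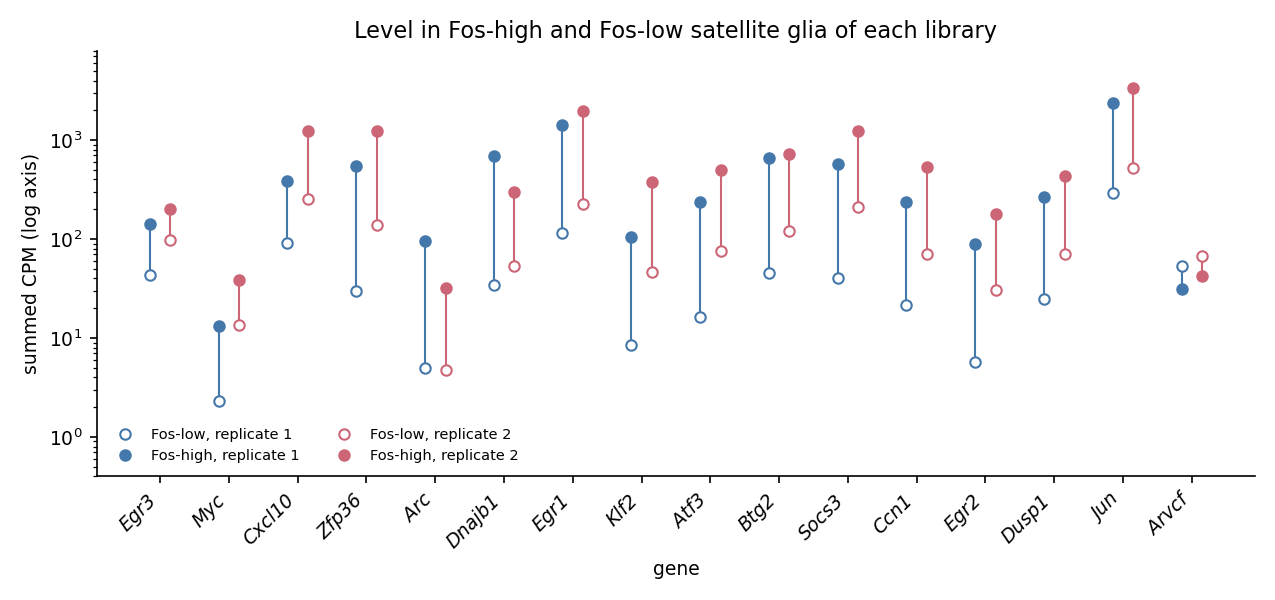
Summed CPM (log axis) of Egr3, Myc, Cxcl10 and the 13 genes named from the test in Fos-low (open) and Fos-high (filled) satellite glia of replicate 1 (blue) and replicate 2 (red). Lines join the 2 classes of a library; the rule that chose the 13 genes required 1 direction in both libraries, and the lines show the size, such as 29.5 to 547 CPM for Zfp36 in replicate 1.

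**Figure D4:**
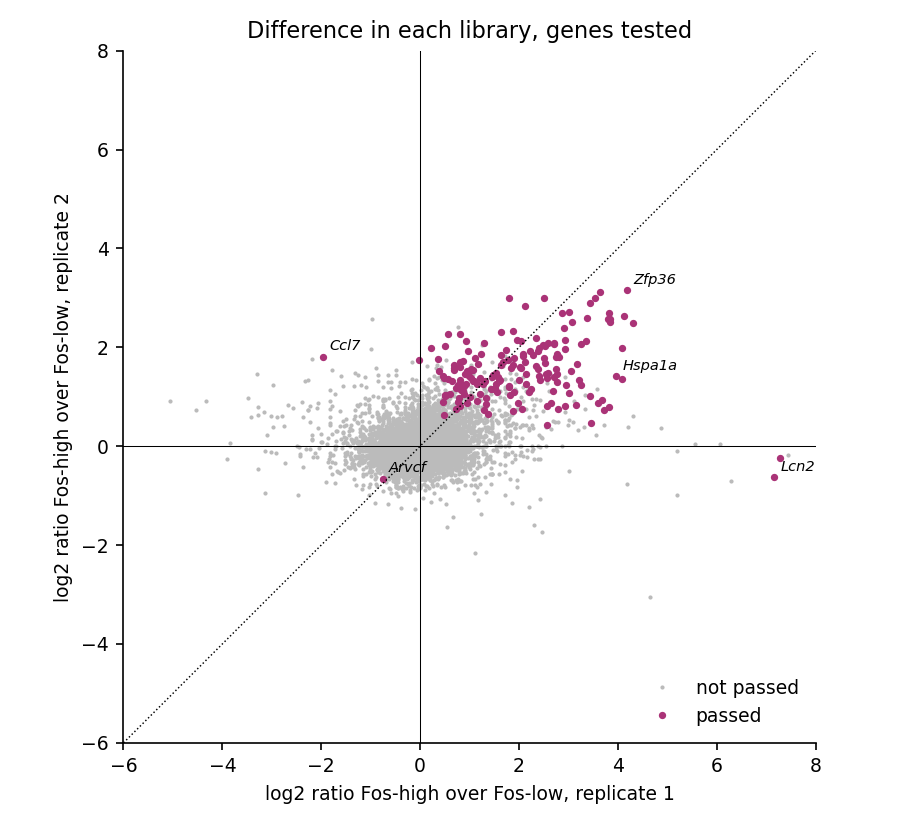
Log2 ratio of Fos-high over Fos-low satellite glia in replicate 1 (x axis) and replicate 2 (y axis) for the 11523 genes tested, with the 178 that passed in purple and equality as a dotted line. Zfp36 is high in both libraries, Hspa1a more so in replicate 1, and Lcn2 and Ccl7 passed while lying on opposite sides of 0 in the 2 libraries.

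The gene lists that follow are counted over members that reached 10 CPM in at least 1 of the 4 satellite sums, a level that 9309 of all tested genes reached, of which 160 rose and 1 fell. The lists were chosen with earlier results of these data known, so their counts are descriptions and not an independent test. Among AP-1 factors, 13 were listed, Fos was the gate, and 7 of the 8 others at this level rose while none fell. Atf3, a stress-induced partner of Jun and a marker of injury in neurons, stood at 237 and 496 CPM in Fos-high cells against 16.4 and 76.6 in Fos-low cells (log2 fold change 3.24 ± 0.48; edgeR adjusted p = 0.00231). Jun stood at 2386 and 3396 against 295 and 520 CPM, and Junb at 1252 and 1954 against 149 and 342 (2.79 ± 0.19). Fosb stood at 285 and 642 against 43.1 and 151 CPM (2.40 ± 0.49). Jund, which is expressed at a steady level in many cells, had the smallest call of the family, 775 and 974 against 314 and 397 CPM (1.30 ± 0.26). Maff and Mafk, small Maf proteins that pair with other leucine zipper factors, also rose, and Fosl2 did not pass at 24.3 and 65.8 against 6.38 and 25.2 CPM (edgeR adjusted p = 0.117). The median over the 10 members tested was 1.99, and the count was 7 again in the marker-free set and 5 with either library left out.

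Of 32 listed Egr, Nr4a, Klf and Ier genes and their like, 30 were in the matrix, and 18 of the 23 at the level of 10 CPM rose while none fell. Klf4, a factor of the growth-arrest class, stood at 149 and 274 against 19.1 and 61.2 CPM (log2 fold change 2.54 ± 0.36), and Ier2 at 462 and 528 against 63.1 and 81.1 CPM (2.79 ± 0.18). Nr4a1, an orphan nuclear receptor, stood at 474 and 647 against 109 and 200 CPM (1.91 ± 0.37), whereas its relative Nr4a2 missed the threshold at 69.7 and 82.3 against 10.0 and 32.0 CPM (edgeR adjusted p = 0.0566). Per1, a clock gene that also responds to cyclic AMP, stood at 16.4 and 43.4 against 5.49 and 19.1 CPM (1.29 ± 0.21). The inhibitors of differentiation Id1 and Id3, which are immediate early genes of BMP signalling, did not pass, Id1 at 50.9 and 60.5 against 69.1 and 71.2 CPM and Id3 at 1350 and 1403 against 1593 and 1457. In the marker-free set 17 rose.

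Feedback regulators of MAP kinases were called in 5 of 15 cases, with none lower. Dusp1, a phosphatase that turns off p38 and JNK in the nucleus, stood at 264 and 431 against 24.9 and 70.8 CPM (log2 fold change 2.99 ± 0.23), and Gem, a small GTPase that limits calcium channels, at 18.8 and 61.9 against 2.45 and 14.4 (2.32 ± 0.32). Dusp5, Dusp8 and Spry2 were the other calls. Dusp6, the usual feedback phosphatase of ERK, did not pass at 60.3 and 60.99 against 41.9 and 49.0 CPM (edgeR adjusted p = 0.346), nor did Dusp4 or Spred1. The count was 3 in the marker-free set and 3 with either library left out.

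Among regulators of NF-kB and of mRNA decay, 7 of 20 rose and none fell. Beside Zfp36, Socs3, an inhibitor of JAK and STAT signalling from gp130 cytokine receptors, stood at 575 and 1237 against 40.8 and 209 CPM (log2 fold change 3.18 ± 0.46; edgeR adjusted p = 0.00205). Nfkbiz, a nuclear cofactor of NF-kB, stood at 37.6 and 127 against 5.79 and 29.5 CPM, and Nfkbia, the inhibitor that NF-kB itself induces, at 109 and 230 against 46.9 and 88.1. Cebpd, an acute-phase transcription factor, stood at 709 and 1513 against 167 and 416 CPM (1.97 ± 0.36). Its Fos-high values lay above its Fos-low values in both libraries, with replicate 2 the higher in each class. The subunits Rela, Nfkb1, Nfkb2 and Relb did not pass, with Rela at 43.1 and 54.7 against 43.6 and 50.2 CPM. Tnfaip3, another inhibitor, missed the threshold (edgeR adjusted p = 0.0612). In the marker-free set 6 rose.

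Of 40 listed chemokines, cytokines and growth factors, 39 were in the matrix, 18 reached 10 CPM and 4 rose with none lower, Cxcl10 being left out of the test. Cxcl1, a neutrophil chemokine, stood at 20.4 and 67.2 against 0.72 and 16.6 CPM (log2 fold change 2.54 ± 0.38; edgeR adjusted p = 0.00244), and in replicate 1 rested on 26 UMIs in 9 cells. Cxcl12 stood at 26.6 and 29.0 against 3.04 and 7.01 CPM, and its call was lost in the marker-free set. Ccl7 and Cxcl2 passed through replicate 2, where Ccl7 stood at 55.8 against 15.5 CPM and Cxcl2 at 37.7 against 16.0. Ccl7 had no UMI in Fos-high cells of replicate 1, where Fos-low cells stood at 1.49 CPM, so the libraries did not share a direction. Ccl2, a monocyte chemokine, did not pass at 11.7 and 74.8 against 2.98 and 55.4 CPM, and neither did Il6 at 1.57 and 15.5 against 0.12 and 7.88. The growth factors Hbegf, Vegfa, Fgf2 and Csf1 did not pass either, Hbegf at 116 and 135 against 92.8 and 92.8 CPM. The count was 3 in the marker-free set, 3 with replicate 1 left out and 1 with replicate 2 left out, and 2 with the highest doublet scores removed.

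Interferon response genes were called in 4 of 31 cases with none lower, and their median over the 33 tested was 0.45. Irf1, a transcription factor induced by interferon gamma and by NF-kB, stood at 92.4 and 481 against 24.7 and 94.95 CPM (log2 fold change 2.14 ± 0.24; edgeR adjusted p = 0.000289). Irf7 stood at 17.2 and 13.6 against 5.73 and 5.75 CPM, and Rsad2 and Rtp4 passed with smaller differences. The broad interferon genes did not pass: Isg15 stood at 290 and 246 against 255 and 123 CPM and Ifit3 at 75.2 and 51.0 against 58.9 and 28.2. The antigen presentation genes B2m, H2-K1 and H2-D1 had log2 fold changes between -0.01 and 0.00. The count was 1 in the marker-free set, 3 with replicate 1 left out and 1 with replicate 2 left out, and 2 with the highest doublet scores removed.

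Heat shock genes were split. The inducible Hsp70 genes Hspa1a and Hspa1b and their cochaperone Dnajb1 rose, and the other 15 of 18 did not pass. Hspa1a stood at 2374 CPM in Fos-high and 152 in Fos-low cells of replicate 1, but at 277 and 104 in replicate 2 (log2 fold change 2.70 ± 0.48; edgeR adjusted p = 0.00915). Hspa1b stood at 1861 and 110 in replicate 1 and at 247 and 96.7 in replicate 2. These are near-identical neighbouring genes, between which reads can be split uncertainly. In the strata by Fos, Hspa1a in replicate 1 stood at 66.6, 675, 1753, 2407 and 6245 CPM, and in replicate 2 at 59.4, 142, 256, 214 and 322. The constitutive Hspa8 did not pass at 1500 and 1573 against 1135 and 1098 CPM, nor did Hsp90aa1 at 964 and 714 against 525 and 618, nor the small heat shock protein Hspb1 at 260 and 135 against 89.6 and 119. With replicate 1 left out 1 gene of the list rose, and with replicate 2 left out 4.

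Of the stress, p53 and growth arrest genes, 7 of 19 rose and none fell. Gadd45g, a stress sensor that activates p38 and JNK, stood at 183 and 396 against 18.6 and 94.1 CPM (log2 fold change 2.65 ± 0.30; edgeR adjusted p = 0.000332), with Gadd45b and Gadd45a called at 1.94 and 1.10. Hmox1, heme oxygenase, stood at 52.5 and 70.8 against 10.8 and 18.1 CPM (2.09 ± 0.17), and the cell cycle inhibitor Cdkn1a at 162 and 132 against 60.02 and 58.8 (1.29 ± 0.19). For both genes the Fos-high values lay above the Fos-low values across the libraries. Mdm2, a p53 target, did not pass at 36.8 and 34.9 against 24.1 and 26.0 CPM, and neither did Atf4 at 160 and 235 against 97.9 and 149 or the oxidative stress genes Txnrd1 and Gclm. Mt1, a metallothionein, stood at 2117 and 4289 against 2099 and 1946 CPM, apart in replicate 2 and near-equal in replicate 1, and did not pass. In the marker-free set 5 rose.

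The growth and ribosome biogenesis genes linked to Myc gave no call among 23 members, with a median of -0.01. Npm1 stood at 259 and 291 against 265 and 276 CPM, Ncl at 218 and 233 against 254 and 213, and Odc1, a classical Myc target, at 106 and 127 against 87.4 and 90.3. Nop58 had the largest difference of the list, 33.7 and 72.2 against 31.3 and 39.3 CPM, and did not pass.

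The genes that serve satellite glia in their usual role also gave no call in 29 members, with a median log2 fold change of -0.11 over them; 14 were lower and 5 higher in both libraries, as were 3665 and 3123 of all 11523 genes tested. Kcnj10, the potassium channel Kir4.1, stood at 290 and 290 against 327 and 291 CPM. Glul, glutamine synthetase, stood at 300 and 474 against 385 and 399 CPM, and the gap junction gene Gja1 at 177 and 212 against 212 and 183, so these genes differed in direction between the libraries or not by more than their spread. Apoe, a lipid carrier, stood at 84523 and 94695 against 104238 and 103283 CPM (log2 fold change -0.21 ± 0.22). The glial genes Mmd2, Ttyh1 and Kcnj16 had the lowest values in the list at -0.40, -0.38 and -0.58, and none passed.

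Cholesterol synthesis and uptake genes gave no call in 19 members, with a median of -0.23; 12 were lower and 2 higher in both libraries, beside the 3665 and 3123 over all genes given above. Dhcr7, which makes cholesterol in the last step, stood at 90.0 and 139 against 137 and 195 CPM (log2 fold change -0.53 ± 0.14; edgeR adjusted p = 0.0839). Of the purine, calcium and glutamate signalling genes none of 19 was called, with P2rx7 at 40.7 and 26.1 against 25.2 and 21.9 CPM, P2ry12 at 43.8 and 42.8 against 45.3 and 41.0 and Ednrb, the endothelin B receptor, at 1293 and 1114 against 1155 and 1027.

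Glial injury genes gave 1 call in 22 members. This was Lcn2, lipocalin 2, which stood at 176 against 0.72 CPM in replicate 1 and at 2.02 against 3.38 in replicate 2. In replicate 1, 218 of its 225 UMIs in members came from 1 cell, and with replicate 1 left out its log2 fold change was -0.70. The other members did not pass, among them Stat3 at 117 and 204 against 84.0 and 108 CPM, Sox4 at 240 and 247 against 163 and 161 (edgeR adjusted p = 0.0654), Serpina3n at 57.1 and 154 against 40.5 and 119, and the intermediate filament gene Vim at 5649 and 5908 against 5197 and 5391. Ngfr and Gap43, markers of repair Schwann cells, had log2 fold changes of 0.01 and -0.13.

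**Figure D5:**
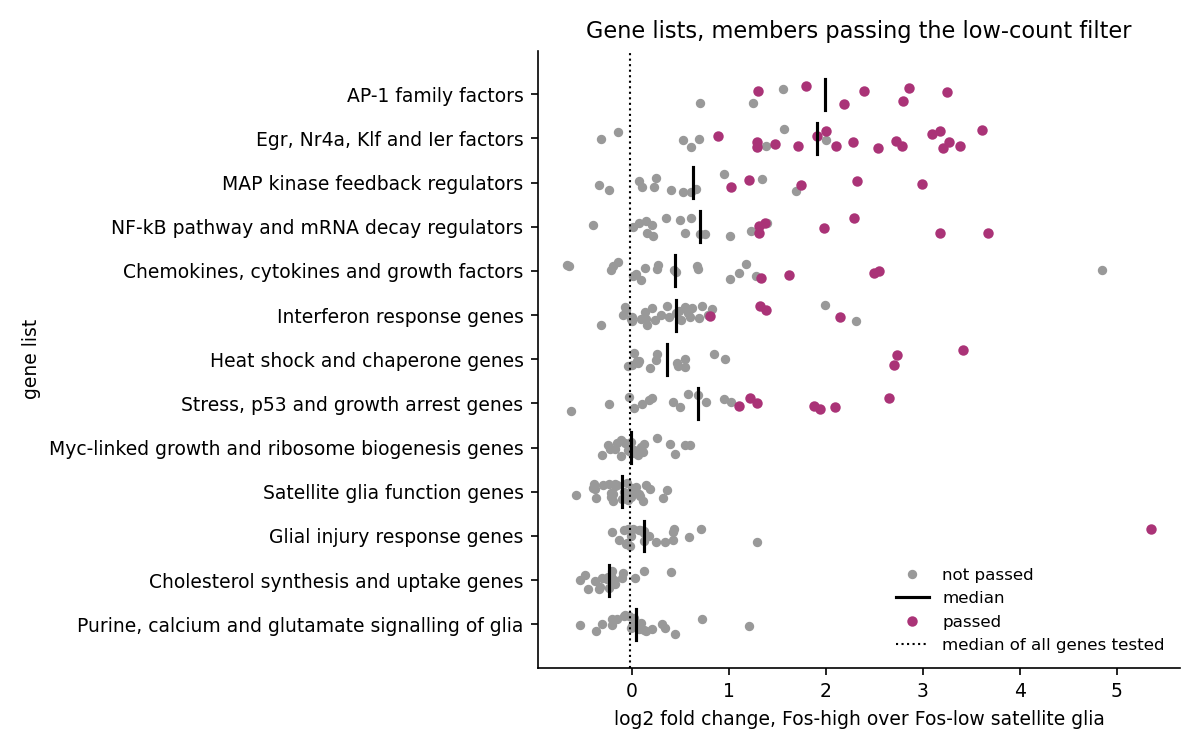
Log2 fold change of Fos-high over Fos-low satellite glia (x axis) for the members of 13 gene lists that entered the test (rows), with genes that passed in purple, others in grey and the list median as a black bar. The dotted line is the median of all genes tested, -0.02; the immediate early lists lie to its right with medians of 1.99 and 1.91, and the Myc-linked, satellite glia function and cholesterol lists lie at or left of it.

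Whether these differences were particular to satellite glia was asked by testing the difference between the Fos-high terms of the classes. Against Schwann cells, 2 of 11523 genes differed (0.0174%), with 525 at an unadjusted p under 0.05. G0s2, an inhibitor of triglyceride breakdown by adipose triglyceride lipase, stood at 161 and 193 CPM in Fos-high and at 47.8 and 49.8 in Fos-low satellite glia, but at 26.1 and 14.99 against 50.5 and 58.9 in Schwann cells (difference of log2 fold changes 2.98 ± 0.34; edgeR adjusted p = 0.00794). Id1 went the other way: its satellite values given above were lower in Fos-high cells, whereas in Schwann cells it stood at 30.4 and 142 against 5.195 and 25.8 CPM (difference -2.83 ± 0.39; edgeR adjusted p = 0.0294). The Schwann sums of replicate 2 held 54 and 57 cells, with 4 and 16 UMIs of G0s2 and 38 and 7 of Id1 in Fos-high and Fos-low cells. Against endothelial cells the edgeR test called 0 genes (0.0%), with 581 at an unadjusted p under 0.05; with RLE size factors it called 13 and with thinned cells 6.

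For 6 genes, chosen after their values were seen, the fitted values in the 3 classes were as follows. Jun had log2 fold changes of 2.86 in satellite glia, 2.05 in Schwann cells and 1.84 in endothelial cells, and Egr1 of 3.38, 3.63 and 2.70. Zfp36 had 3.67, 2.92 and 2.12, and Dusp1 2.99, 2.82 and 1.44. Cxcl10, as a description, had 2.18 in satellite glia, 1.03 in Schwann cells and 0.19 in endothelial cells, and Gadd45g had 2.65, 0.50 and 1.18. Of these, Cxcl10 was not tested and none of the others passed the test of the difference between classes. The fold changes do not give the level in each class. After thinning, Cxcl10 was found in 19.6% and 41.8% of Fos-high satellite glia and in 4.20% and 18.5% of Fos-high Schwann cells. In endothelial cells it was found in 6.97% and 38.3% of Fos-high and in 4.72% and 26.6% of Fos-low cells. The Fos-high endothelial share was thus near that of satellite glia in replicate 2 but lower in replicate 1.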

How the data were processed

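Single-cell 3′ libraries of 2 replicates of the AEW group were analysed. Each deposited matrix lists, for every gene and barcode, raw UMI counts. The submitters' processing notes name CASAVA 1.8, Cell Ranger 5.0.1 and build mm10. The deposited barcode and feature files hold other values (barcodes, gene identifiers and symbols). Neither the annotation release nor the settings for cell calling and for reads in introns are given in the sources used here. Of 31253 gene identifiers, 31107 were in GENCODE M21 (GRCm38), which gave gene positions.

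The members were chosen by the thresholds in the report, which were applied to the deposited counts. Schwann cells were gated by a marker that is not reported here. Endothelial cells had at least 20 UMIs of Cldn5, Pecam1, Flt1 and Emcn per 10000, and both other classes under 10 of Fabp7. The members, gene lists and tests were chosen with earlier results of these data known. UMIs were summed per class, Fos level and library into 12 sums (245664 to 18438808 UMIs; 143 members in the smallest satellite sum). They were tested with edgeR 4.0.16 (R 4.3.3; TMM, filterByExpr, quasi-likelihood F test, 3 residual degrees of freedom), with class by library as blocks, since both sums of a class come from the same library (correlation of library differences 0.434 across genes). Of 11545 genes fitted, 22 that set the gates or described the class were left out. Values after ± are standard errors derived from the test.

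Named genes were the 12 with the largest log2 fold change in each direction that passed, agreed in sign between libraries and reached 20 CPM in both; list members reached 10 CPM. Cells were thinned to 2000 UMIs for shares (seed 1). Alternatives were RLE factors, DESeq2 1.42.0, no count filter, no block, satellite sums only, other Fos, UMI and neuronal thresholds, removal of top Scrublet scores (scanpy 1.11.5), thinning and each replicate left out. A higher Fabp7 threshold, the marker-free set and the fit without Schwann sums were added after the data were seen. Other tools were numpy 2.4.6 and pandas 2.3.3 for the sums, scipy 1.17.1 for intervals and matplotlib 3.10.9, in Python 3.11.15.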

Additional observations from a re-analysis of the deposited data

Results flagged for a closer look

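G0s2 and Id1 are listed because the difference between Fos-high and Fos-low cells itself differed between satellite glia and Schwann cells. For G0s2 the difference of log2 fold changes was 2.98 ± 0.34 (SE; edgeR adjusted p = 0.00794), from 1.86 in satellite glia and -1.12 in Schwann cells, with 206 and 1530 UMIs in the Fos-high satellite sums but 43 and 4 in the Fos-high and 68 and 16 in the Fos-low Schwann sums of replicates 1 and 2. For Id1 it was -2.83 ± 0.39 (edgeR adjusted p = 0.0294), from -0.32 and 2.50, with 50 and 38 UMIs in the Fos-high and 7 in each Fos-low Schwann sum. The direction in each class was the same in both libraries for both genes. No group holds enough samples for a search for outlying samples.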

How the results depend on the processing

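The 12 genes named as higher were called under every alternative run except the fit with no replicate block, in which no gene passed (0 higher and 0 lower, 339 at an unadjusted p under 0.05). Without the filter on low counts 365 genes were higher and 33 lower, and fewer were higher with Fabp7 at 100 per 10000 or more (117, with 0 lower) and in the marker-free set (92, with 2 lower). The number lower, 1 in the report, was 5 with satellite sums only, 8 and 7 with Fos thresholds of 10 and 40 per 10000, 9 with Fos at 40 or more against under 10, 2 with thinned cells, and 0 with the stricter neuronal gate, with doublets removed and with DESeq2. Leaving out 1 replicate, with the lone satellite sums assumed to vary like the other classes, gave 111 to 152 genes higher and 2 to 6 lower. Over 57 genes followed in 968 pairs of a gene and an alternative, 797 kept their call, 166 lost it and 5 turned direction. The Lcn2 log2 fold change turned to -0.15 with the Fos threshold of 40, to -0.64 with the higher Fabp7 threshold and ranged from -0.70 to 7.83 with 1 replicate left out; it had no value in the marker-free set. The Ccl7 log2 fold change turned to -0.50 with doublets removed and ranged from -5.24 to 1.88 with 1 replicate left out. The number of genes that differed from Schwann cells was 0 with no replicate block and 8 with thinned cells, and from endothelial cells 13 with RLE factors and 6 with thinned cells. The Fos-high share was 5.42%, 10.7%, 2.45% and 3.96% in replicate 1 and 52.2%, 59.9%, 35.6% and 45.2% in replicate 2 with the stricter neuronal gate, Fos thresholds of 10 and 40, and the higher Fabp7 threshold. In the stricter neuronal gate the Schwann class was left out for having under 20 cells in a sum. The causes of these changes were not tested. The Fos-high sum of replicate 1 limits precision, at 1327521 UMIs in 143 cells.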
